A study of Mus musculus with 5 samples.

Results

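The genes examined here are 9 homeobox genes of the sine oculis and Iroquois families that sit in 4 small genomic clusters of the mouse, namely Six2, Six3, Six6, Irx1, Irx2, Irx3, Irx4, Irx5 and Irx6. They were chosen with earlier results of these data known. They were then looked up by name among the 22367 annotated protein-coding genes, and all 9 were found. For each gene, the CBX2 peaks that overlapped its body extended by 5 kb on each side were collected from 3 peak lists. CBX2 is a chromodomain subunit of Polycomb Repressive Complex 1 (PRC1).

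CBX2 was mapped by ChIP-Seq on crosslinked, MNase-digested chromatin in mouse embryonic fibroblasts (MEFs) derived from a mid-gestation embryo whose Eed gene, which encodes a core subunit of PRC2, is flanked by loxP sites. The Control list came from the parental floxed cells with Eed in place. The EZHIP and K27M lists came from such cells transduced with a lentivirus for stable expression of human EZHIP or of histone H3.3 K27M from an EF1a promoter, with puromycin selection. Both proteins inhibit PRC2, and both comparisons share the 1 Control library. Each group had 1 library, so no value has a replicate error, no test between groups was possible, and a difference between lists cannot be told apart from a difference between libraries. The lists held 289 Control, 255 EZHIP and 327 K27M peaks without any height or score, and their read depth is unknown. Peaks consisted of whole bins of 200 bp, which is the finest step an edge can move. Peak lists do not measure expression, so the fibroblast label could not be checked. None of 8 fibroblast genes (including Col1a1, Vim and Thy1) lay within 5 kb of a CBX2 peak in any list, nor did 97.7% of all protein-coding genes. Libraries labelled K27R and EEDnull were not used here.

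Sine oculis proteins (Six2 and its relatives) carry a conserved protein-interaction domain beside their homeodomain and act with Eya and Dach cofactors in the eye, kidney, ear and muscle. Irx proteins belong to the TALE class of homeodomain factors, whose homeodomain has extra residues between its helices, and pattern the limb, heart and neural tube. Genes of this kind are classic Polycomb targets. PRC2 places H3K27me3 around their CpG islands in tissues where they are silent, and the chromodomains of CBX proteins can bind this mark.

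Of the 9 genes, 3 had a peak in Control, 2 in EZHIP and 5 in K27M. Six3 and Six6 had a peak in all 3 lists. Irx5 had one in Control and K27M, Irx3 and Irx4 had one in K27M alone, and 4 genes (Six2, Irx1, Irx2 and Irx6) had none. By the same rule, a peak was held by 1.49% (Control), 1.44% (EZHIP) and 1.78% (K27M) of all protein-coding genes. In all, 97.7% of genes and 4 of the 9 members had a peak in no list. Irx5, which had no EZHIP peak, was 1 of the 3 members with a Control peak, while 22.5% of all genes with a Control peak had none in EZHIP. Irx3 and Irx4 were 2 of the 5 members with a K27M peak, while 30.2% of all genes with a K27M peak had none in Control. With so few genes, chosen with earlier results of these data known, these shares are descriptions only. In bulk chromatin, fewer cells with CBX2 at a gene and less CBX2 per cell cannot be told apart.

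**Figure D1:**
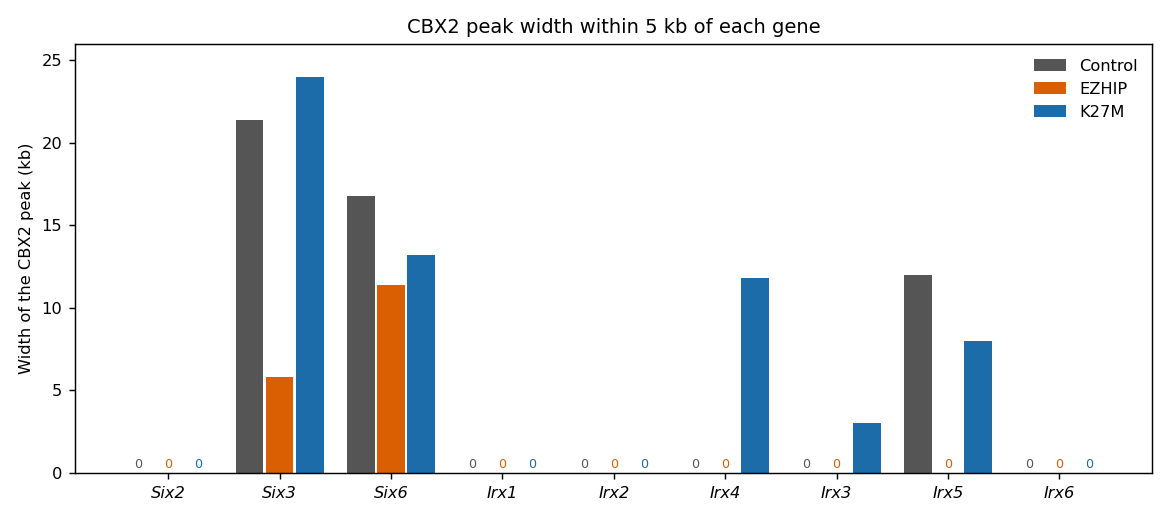
Width in kb of the CBX2 peak within 5 kb of each of the 9 genes in the Control (grey), EZHIP (orange) and K27M (blue) lists, with 1 library per bar and 0 where no peak was called. Six3 stands at 21.4, 5.8 and 24 kb, Six6 is held by all lists, and Irx4 and Irx3 have a bar for K27M only.

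Promoter entries were matched for 6 of the 9 genes, all but Irx1, Irx5 and Irx6. Of these, 4 that differed in their calls are shown: Six6 (start in a peak in all lists), Six3 (in Control and K27M), Irx4 (just upstream of a peak in K27M alone) and Six2 (no peak). Each sequence is the RefSeq promoter of the GRCm38.p6 table, from 250 bases before to 50 bases after the RefSeq start, and each matched mm9 exactly at 1 place on its chromosome. Sequences read 5′ to 3′ on the strand of the gene, with CpG dinucleotides in capitals.
Six6 (chr12:74040619-74040918, plus strand): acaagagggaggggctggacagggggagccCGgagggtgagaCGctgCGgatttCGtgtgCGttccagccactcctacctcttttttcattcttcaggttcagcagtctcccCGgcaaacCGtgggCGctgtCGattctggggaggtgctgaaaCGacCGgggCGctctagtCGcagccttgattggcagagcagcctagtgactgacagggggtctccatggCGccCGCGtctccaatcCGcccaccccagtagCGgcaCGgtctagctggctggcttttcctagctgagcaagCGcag
Six3 (chr17:86019924-86020223, plus strand): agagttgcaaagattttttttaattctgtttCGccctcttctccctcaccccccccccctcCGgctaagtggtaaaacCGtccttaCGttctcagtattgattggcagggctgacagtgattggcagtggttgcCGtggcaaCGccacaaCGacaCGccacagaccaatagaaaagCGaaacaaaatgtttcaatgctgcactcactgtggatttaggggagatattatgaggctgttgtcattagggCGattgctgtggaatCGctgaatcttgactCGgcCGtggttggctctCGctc
Irx4 (chr13:73397695-73397994, plus strand): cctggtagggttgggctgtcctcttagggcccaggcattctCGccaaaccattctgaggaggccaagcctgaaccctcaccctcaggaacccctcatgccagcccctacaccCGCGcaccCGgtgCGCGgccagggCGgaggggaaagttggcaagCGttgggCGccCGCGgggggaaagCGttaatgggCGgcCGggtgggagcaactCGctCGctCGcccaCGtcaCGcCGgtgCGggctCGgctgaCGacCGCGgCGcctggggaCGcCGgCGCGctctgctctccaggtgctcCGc
Six2 (chr17:86087545-86087844, minus strand): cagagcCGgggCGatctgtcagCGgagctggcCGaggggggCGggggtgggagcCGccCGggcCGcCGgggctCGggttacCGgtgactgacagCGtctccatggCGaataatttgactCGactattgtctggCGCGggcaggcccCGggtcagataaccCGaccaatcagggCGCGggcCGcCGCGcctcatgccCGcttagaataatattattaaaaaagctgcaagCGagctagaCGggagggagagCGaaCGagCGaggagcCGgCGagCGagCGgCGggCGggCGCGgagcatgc

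The 300 bases held 20 CpGs at Six6, 14 at Six3, 31 at Irx4 and 37 at Six2. The median over the 32851 promoters of that length in the table was 7, and the middle 50% ran from 3 to 20. The ratio of observed to expected CpGs was 0.689 at Six6, 0.747 at Six3, 0.828 at Irx4 and 1.13 at Six2. Six2, which had no peak, held the most CpGs among these 4 and among all 6 genes with a RefSeq entry. The promoters of Irx4 and Six2 were chosen for display after their values were seen, and no relation between CpG count and calls was tested. Among the other genes with a RefSeq entry, Irx2 (no peak) held 25 CpGs, and Irx3 (a peak in K27M alone, 2248 bp upstream of its start) held 14.

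Six3, a regulator of forebrain and eye formation, had the widest peak of any member in Control and K27M. Its gene lies on chromosome 17 of mm9, the build of all positions here, from 86012948 to 86031153 (plus strand), and its annotated transcripts begin at 3 positions. In Control, the peak ran from 86004801 to 86026200 (21.4 kb), which ranked 38 of 289 peaks by width. In EZHIP, it ran from 86006001 to 86011800 (5.8 kb, rank 144 of 255), and in K27M from 86003801 to 86027800 (24 kb, rank 55 of 327). The Control and K27M peaks thus covered the gene start and 72.8% and 81.6% of the gene body, whereas the EZHIP peak stopped 1148 bp before the first annotated start and covered none of the body.

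The EZHIP peak at Six3 began 1200 bp to the right of the Control peak and ended 14400 bp before it. Of the 370 edges at sites shared by Control and EZHIP, 5 (this one included) moved by 14400 bp or more, and the median move was 800 bp. In K27M, the left edge lay 1000 bp outside and the right edge 1600 bp outside the Control edges, near the median move of 1200 bp over 438 edges. The whole EZHIP peak fell inside Six3os1, a long non-coding RNA gene on the opposite strand that overlaps the 5′ part of Six3. It did not contain the annotated start of Six3os1, which the Control and K27M peaks did. The RefSeq start of Six3 (86020174, which is 7226 bp downstream of the first annotated start), whose promoter is shown above, lay 8374 bp beyond the right edge of the EZHIP peak.

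Widths at the Six3 site gave a log2 ratio of EZHIP to Control of -1.88, and only 3 of the 185 shared sites had a lower one. The median over these sites was -0.09, with the middle 50% from -0.46 to 0.13. The K27M to Control log2 ratio at Six3 was 0.17, within the middle 50% of 219 shared sites (0.00 to 0.79) and below their median of 0.25. Among 168 sites without a member that all lists held, the one with the most similar 3 widths contained the start of Nkx2-1, a homeobox gene of the forebrain, lung and thyroid. It lay on chromosome 12 from 57610001 to 57641400 with widths of 19.2, 7.6 and 31.4 kb for Control, EZHIP and K27M, at a Euclidean distance of 0.57 from Six3 on the log2 scale of width.

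Six2, which keeps nephron progenitors in their undifferentiated state, is the neighbour of Six3, 52.5 kb away with no protein-coding gene between them. It lies on the minus strand of chromosome 17 from 86083608 to 86087594. The nearest peak to its body was the Six3 peak, at 57.4, 71.8 and 55.8 kb for Control, EZHIP and K27M. No peak therefore joined the pair, and in each list the Six3 peak ended within or before Six3. On the far side of Six3, a further site was held by all lists. It lay outside the 5 kb limit, with its near edge 118, 125 and 120 kb from Six3 for Control, EZHIP and K27M. Its widths were 10.6, 2.8 and 38.8 kb for the lists in that order. This site was widest in K27M and narrowest in EZHIP, the same order as at Six3. That order is also the general trend. Of 219 sites shared with Control, 163 were wider and 38 narrower in K27M, and of 185, 117 were narrower and 60 wider in EZHIP.

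**Figure D2:**
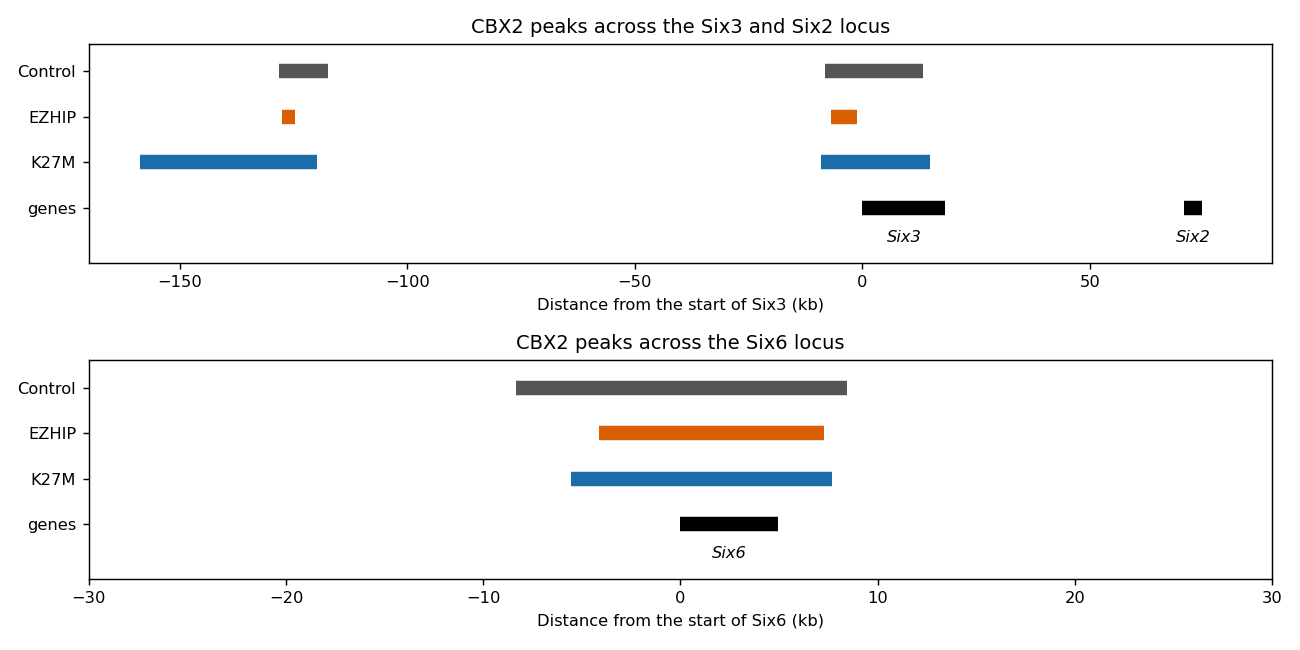
CBX2 peaks of the Control (grey), EZHIP (orange) and K27M (blue) lists, drawn to scale against distance in kb from the start of Six3 (top) or Six6 (bottom), each panel with its own scale and the named genes in black. At Six3 the EZHIP bar of 5.8 kb stops before the gene, no bar reaches Six2, and at Six6 every bar spans the gene.

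Six6, the paralogue of Six3 with roles in the retina and pituitary, was the gene with the most even calls. It lies on chromosome 12 from 74040932 to 74045886 (plus strand). Its peak ran from 74032601 to 74049400 (16.8 kb) in Control, from 74036801 to 74048200 (11.4 kb) in EZHIP and from 74035401 to 74048600 (13.2 kb) in K27M. Each of these peaks covered 100% of the gene body and the gene start, so the lists differed only in the flanks. The left edge moved inward by 4200 bp in EZHIP and 2800 bp in K27M, and the right edge by 1200 and 800 bp. All left edges lay in an intron of 4930447C04Rik, a gene on the opposite strand whose 5′ end overlaps that of Six6.

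The log2 width ratio at Six6 was -0.56 for EZHIP to Control, and 34 of 185 shared sites had a lower one. For K27M to Control it was -0.35, and 8 of 219 shared sites had a lower ratio. Most shared sites were wider in K27M than in Control (163 of 219), and 38 were narrower, Six6 among them. The site without a member most like it in width lay on chromosome 13 (78309801 to 78325800) and contained no protein-coding gene start. Its peaks measured 15.6, 11.6 and 14.4 kb in Control, EZHIP and K27M, a distance of 0.17 on the log2 scale.

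Six4, which lies in the same cluster as Six6, had no peak in any list, and the Six6 peak was its nearest, at 152, 153 and 153 kb for Control, EZHIP and K27M. Its paralogue Six5, which is on chromosome 7 and in no cluster, had none either. The paralogues Six3 and Six6 had a peak in every list, though Six3 in EZHIP counted only through the 5 kb extension. The paralogues Six4 and Six5 had none in any list, nor did 97.7% of all protein-coding genes.

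The Irx genes are arranged in a pair of clusters of 3 genes that arose by duplication, with Irx1, Irx2 and Irx4 on chromosome 13 and Irx3, Irx5 and Irx6 on chromosome 8. The genes lie far apart, at 626 to 665 kb between neighbours on chromosome 13 and at 313 to 556 kb on chromosome 8. No peak overlapped 2 members in any list, and the widest Irx peak was 12 kb. In Control, 1 of the 6 Irx genes had a peak, in EZHIP none and in K27M 3.

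Irx5, which acts in limb, heart and retina, had the only Irx peak in Control. It lies on chromosome 8 from 94881695 to 94885351 (plus strand). The Control peak ran from 94878001 to 94890000 (12 kb) and the K27M peak from 94882001 to 94890000 (8 kb). Both ended in the same bin, and the difference lay wholly in the left edge, which was 4000 bp further right in K27M. The Control peak contained the start of Irx5 and that of 4933436C20Rik, a gene that begins upstream of it and is transcribed the other way, while the K27M peak began 306 bp inside Irx5 and contained neither start. The gene body was covered to 100% in Control and to 91.6% in K27M.

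The K27M to Control log2 width ratio at Irx5 was -0.58, and 5 of 219 shared sites had a lower one. In EZHIP, no peak was called at Irx5, and the nearest EZHIP peak on the chromosome was 11.6 Mb away. Without heights, absence from the list shows only that no run of bins passed the threshold of the peak caller. Of 48 other sites held by Control and K27M but not EZHIP, the most similar in width had 8.4 kb in Control and 10.2 kb in K27M and contained no protein-coding gene start. This comparison was added after the calls were seen.

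Irx4, a gene of the heart ventricle, had a peak in K27M alone. It lies on chromosome 13 from 73397945 to 73407068 (plus strand). The K27M peak ran from 73398601 to 73410400 (11.8 kb), ranked 134 of 327 by width, began in an intron of the gene 656 bp past its start, and covered 92.8% of the body. The nearest peak in Control and in EZHIP was 4.90 Mb away. Among 89 other sites found in K27M alone, the most similar in width contained the start of Pou4f2, a gene of retinal ganglion cells. Its peak had the same width (11.8 kb), and the match rests on this width alone. In the K27M list, 5 of 327 peaks had exactly this width, that of Irx4 included. The match was also looked up after the calls were seen.

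Irx3, a neighbour of Irx5 with overlapping roles in limb and heart, had the narrowest member peak. It lies on chromosome 8 from 94322428 to 94325553 (minus strand). The K27M peak of 3 kb (94327801 to 94330800, rank 292 of 327) lay upstream of the gene, 2248 bp from its start, and inside D230002A01Rik, a long non-coding RNA gene of the opposite strand that overlaps Irx3. The peak touched no part of the Irx3 body and counted only through the 5 kb extension. The nearest Control peak was that of Irx5, at 552 kb, and the nearest EZHIP peak was 11.1 Mb away.

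Irx1, Irx2 and Irx6 had no peak. In Control and EZHIP, no peak lay nearer than 6.21 Mb to Irx1 or 5.54 Mb to Irx2. In K27M, the nearest one was the Irx4 peak, 1.30 Mb from Irx1 and 627 kb from Irx2. The nearest peak to Irx6 was that of Irx5 in both Control and K27M, at 308 kb. Read by paralogue pair, Irx2 had no peak while Irx5 had one in Control and K27M, Irx1 had none while Irx3 had one in K27M, and Irx6 had none while Irx4 had one in K27M. In no pair did both paralogues have a peak. With so few pairs, and with 97.7% of all protein-coding genes lacking a peak in every list, this is a description only. The call at Irx3 also rests on the 5 kb extension alone.

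**Figure D3:**
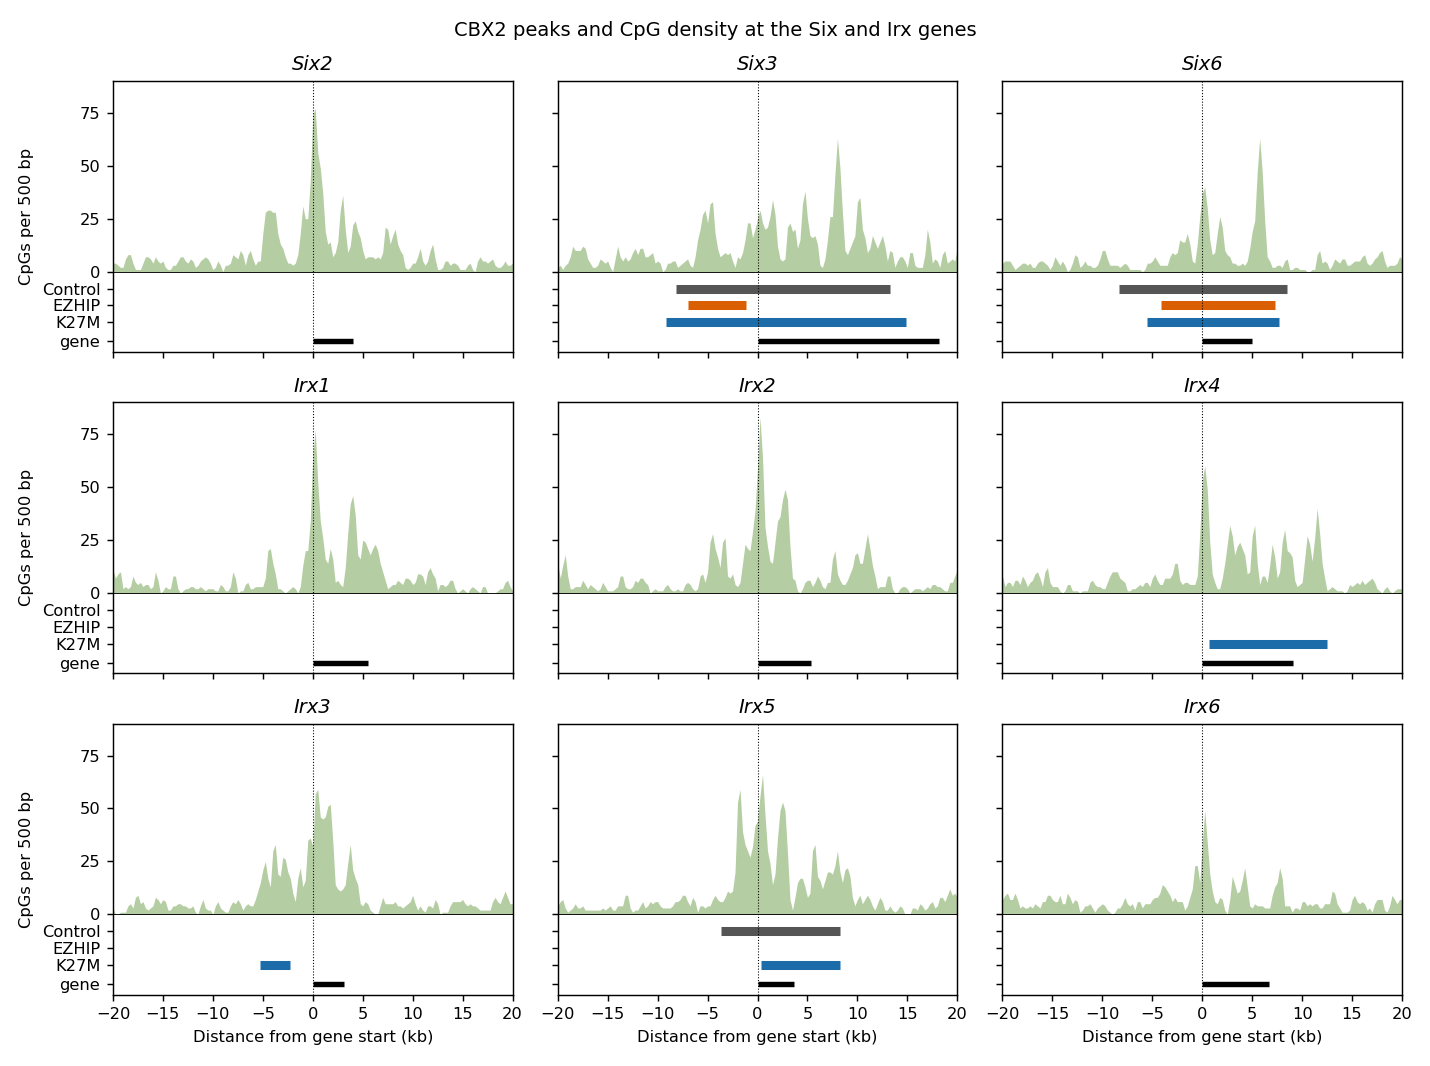
CpG count per 500 bp (green) against distance in kb from the annotated start of each gene, oriented so that transcription runs to the right, with CBX2 peaks of the Control, EZHIP and K27M lists and the gene body as bars beneath. All 9 starts sit at CpG-dense sequence, while Six2, Irx1, Irx2 and Irx6 have no peak bar.

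CpG islands were then compared with the calls, since the rule that chose the genes did not use sequence. An island was a run of 500 bp windows in which G and C made up at least 55% of bases and CpGs reached at least 0.65 of the number expected from base content. The annotated start of every member lay in an island, also at the 4 genes without a peak. Within 5 kb of the gene there were 5 islands at Six2 (5.1 kb in sum), 2 at Irx1 (3.15 kb), 3 at Irx2 (4 kb) and 1 at Irx6 (1 kb). The genes with a peak had 6 islands at Six3 (5.35 kb), 3 at Six6 (3.25 kb), 5 at Irx4 (3.95 kb), 5 at Irx3 (5.55 kb) and 5 at Irx5 (6.45 kb). The ranges overlapped, and Six2 had more island sequence than Six6, which every list held. On the other side, Irx5, Irx3 and Six3, with the largest sums, had a peak, and Irx6, with the smallest, had none. A relation between island length and calls was not tested.

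At Six3, all 6 islands within 5 kb of the gene lay in the Control and K27M peaks, and 1, the one farthest upstream, lay in the EZHIP peak. This left 14.0% of the island length of Six3 in a peak in EZHIP, against 100% in Control and K27M. Counted over the whole peaks, also beyond the 5 kb limit, the EZHIP peak held 2 islands (1250 bp). The Control and K27M peaks each held 7 (5850 bp). At Six6, the 3 islands lay in the peak of each list to 100%, so the narrower EZHIP and K27M peaks there lost sequence outside islands only. At Irx5, all 5 islands lay in the Control peak and 4 in the K27M peak, and the island missed was the one at the start of 4933436C20Rik. The K27M edge cut through the island that holds the Irx5 start, and 61.2% of the island length was covered. At Irx4, the K27M peak touched all 5 islands and covered 72.2% of their length, and at Irx3 it touched 3 of 5 and covered 32.4%. The island of 3 kb that spans the start of Irx3 was not in the peak.

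Over the 4 cluster windows, which run from 5 kb before the first to 5 kb after the last gene, there were 44 islands. Of these, 14 lay in a Control peak, 4 in an EZHIP peak and 21 in a K27M peak. Over the genome, 2.58% of 19344 islands overlapped a Control peak, 2.34% an EZHIP peak and 3.57% a K27M peak. All 10 member peaks contained an island, as did 70.9% of all Control peaks, 76.1% of EZHIP peaks and 87.2% of K27M peaks. The density of CpGs in the member peaks was highest at Irx5 in Control, at 52.3 per kb, and lowest at Six6 in Control, at 21.9 per kb.

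The gene start itself was in a peak for 3 members in Control (Six3, Six6 and Irx5), 1 in EZHIP (Six6) and 2 in K27M (Six3 and Six6). Over all protein-coding genes, a peak held the start of 0.903% (Control), 0.894% (EZHIP) and 1.19% (K27M). The K27M list thus had the most members with a peak but fewer member starts in a peak than Control. Its peaks at Irx4 and Irx5 began past the start, and that at Irx3 lay upstream of it.

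**Figure D4:**
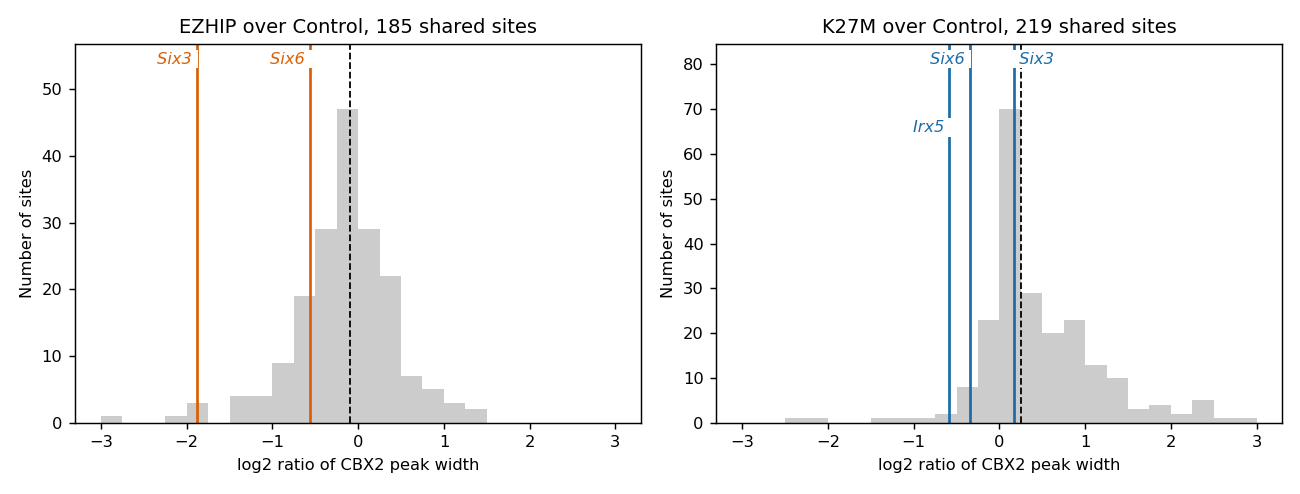
Number of sites against the log2 ratio of CBX2 peak width to Control, for 185 sites shared with EZHIP (left) and 219 shared with K27M (right), with the median as a dashed line and member sites as coloured lines. Six3 lies at -1.88 in the EZHIP panel, and Irx5 and Six6 lie at -0.58 and -0.35 in the K27M panel, left of the median of 0.25.

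Sequence found in several places of the genome can gather reads from elsewhere, so 32-mers taken every 100 bp were looked up in the whole genome. More than 1 copy was found for 0.83% of them at Six3 and Irx5 and 0.85% at Irx4. The share was 3.33% at Irx3 (1 of 30) and 10.7% at Six6 (18 of 168). No share was taken over other peaks, so these values cannot be called high or low. The part of repeated sequence in the calls at Six6 was not tested.

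Genes of related pathways were looked up by the same rule, under which 97.7% of all protein-coding genes had no peak in any list. In the network of sine oculis proteins with Eya and Dach cofactors, none of Eya1, Eya2, Eya3, Eya4, Dach1, Dach2, Six4 and Six5 had a CBX2 peak within 5 kb in any list. The same held for 12 other TALE homeobox genes of the Meis, Pbx, Pknox, Tgif and Mkx families. With so few genes, both counts are near the share over all genes and are no result about these pathways. For comparison, among the 6 Dlx genes, another set of paired homeobox genes, 1 had a peak in Control and in EZHIP (Dlx6) and 3 had one in K27M (Dlx4, Dlx5 and Dlx6), beside 1.49%, 1.44% and 1.78% of all genes for Control, EZHIP and K27M. The Dlx6 peak was 15.8, 12.4 and 17.8 kb wide in these lists, and it did not overlap the body of Dlx5 in any list. In K27M it reached within 5 kb of Dlx5, which counted through this shared peak alone. The difference between these sets was not tested.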

How the data were processed

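Peaks were analysed in 3 of the 5 labelled CBX2 libraries (Control, EZHIP and K27M, 1 each). The authors aligned reads to mm9 with bowtie1 (Bowtie 1.0.0 in the submitters' processing notes) and called broad peaks per library with MOSAiCS-HMM at a stated maximum gap of 10000 bp. Whether an input or scaling entered the calls is not given in the sources used here, and reads were not analysed here. The deposited lists hold a start and an end per peak, with no score. Every start and end fell on a 200 bp bin, read as 0-based with the last base included, and positions are printed 1-based.

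Genes came from GENCODE vM1 on NCBIM37, the assembly of mm9, with the body as the union of transcripts. Peaks that overlapped by at least 1 bp across lists formed 430 merged sites, at which summed widths were compared with Control. Promoters of 6 members were taken from RefSeq. CpG islands used 500 bp windows every 50 bp. Python 3.11.15 and numpy 2.4.6 were used, and overlap, ratio and island steps were tested on simulated data.

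The 9 genes and the lists of other genes were chosen with earlier results of these data known, and 1 gene of those lists is not reported here. All members were named, other genes being cluster neighbours, genes under member peaks, list genes with a peak and the sites most alike in width. The promoters of Irx4 and Six2 and the sites likened to Irx4 and Irx5 were chosen after their values were seen. Alternatives were other extensions, a 5000 bp minimum width, joining of peaks within 10000 bp, other overlap and length rules, and a looser island.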

Additional observations from a re-analysis of the deposited data

How the results depend on the processing

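Of the values recomputed under other settings, 14 moved by more than 1.5 times (counts), 1 bin (lengths) or 1 percentage point (gene coverage). Direction was scored for the log2 width ratios alone. Each of these kept its exact value under every setting tried, so no reversal could have appeared. Joining peaks closer than 10000 bp, or taking the widest peak of a list at a site, left every member value identical. Each list held at most 1 peak at a member, with no other peak that close. These settings therefore say nothing about stability. No paired analysis was possible because there was 1 library in each group, and none could be left out. The count of members with a peak in EZHIP was 1 without extension, with the gene start inside the peak, or with 50% of the extended gene covered, since Six3 then dropped out. In K27M it was 2 with the gene start inside the peak. Control kept 3 by that rule, so K27M then fell below Control, whereas the main rule gave 5 in K27M and 3 in Control. Within the cluster windows, the covered length at Six2 and Six3 was 18253, 3853 and 19853 bp for Control, EZHIP and K27M, and at Six6 13469 bp in Control and 12669 bp in K27M. With peaks of at least 5000 bp, the Irx3 peak was lost and the length at its cluster in K27M was 8000 bp. On its longest transcript, Six3 was covered to 99.0% in Control and 100% in K27M. With the looser island, 2 islands at Six2 and Six3 lay in an EZHIP peak, against 1 with the main definition. At the Irx3, Irx5 and Irx6 cluster, 3 lay in a Control peak, against 5. Every main island lies inside a looser one, so the lower count means that neighbouring islands had joined, not that overlap was lost. The unknown depth limits all calls, since the number and width of peaks can move with it.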
